A study of Homo sapiens with 12 samples.

Results

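The genes described here are the translation initiation and elongation factors of LNCaP cells, an androgen-sensitive human prostate cancer line. They were chosen by symbol: the names begin with EIF1 to EIF6, EEF1 or EEF2, and names that contain AK, end in P plus a number (as pseudogenes do) or carry -AS were left out. The kinase EEF2K is therefore a member, while the EIF2AK kinases and the EEF1AKMT methyltransferases are not. The rule held for 62 of 60835 symbols, of which 58 name factors and 4 name other transcripts (EEF1E1-BLOC1S5, EIF2B5-DT, EIF3J-DT and EIF5-DT). It also dropped the 3 EIF4EBP genes, which end in a P and a digit without being pseudogenes; they are described with the pathway genes. Poly(A) RNA had been sequenced from 4 groups of 3 replicates: cells given shRNA-FOXA1, their control shRNA group, cells given shRNA-TRIM28, and a separate control shRNA group. FOXA1 is a pioneer transcription factor of luminal prostate cells, and TRIM28 represses transcription at sites bound by zinc finger proteins with a KRAB domain. The series design calls the replicates biological, and nothing states which steps were repeated, so p-values measure the spread between these libraries. The cells came from 1 line, labelled LACAP in the sample records and LNCaP in the design. Titles of the knockdown libraries read SH control, and the genotype given for several libraries names another gene of the same family, so the groups follow the treatment labels and the titles of the controls.

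Protein synthesis starts when the eIF4 proteins bind the capped mRNA, eIF3 and the small ribosomal subunit join, and eIF2 brings the initiator tRNA, after which eIF1, eIF1A, eIF5 and eIF5B govern start codon choice and subunit joining. eIF2B recharges eIF2 with GTP. In elongation, eEF1A carries aminoacyl-tRNA to the ribosome, the eEF1B subunits recharge eEF1A, and eEF2 moves the ribosome along the mRNA, a step that the kinase eEF2K slows by phosphorylating eEF2. Many mRNAs of this machinery begin with a cytosine followed by a run of pyrimidines, the 5′ terminal oligopyrimidine (TOP) motif, through which mTORC1 and LARP1 control their translation.

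Start sites of members that the results below turn on are printed to show this feature. Each window holds 12 bases before and 18 bases from the annotated start of transcription, from RefSeq on GRCh38.p14, in the direction of transcription. Capitals mark a tract that has a C within 2 bases of that start followed by at least 4 pyrimidines. The first 8 members hold such a tract. Those printed are not a sample of all members. A tract also stands at a listed start of EIF4E2 and of EIF4G2, which were called higher after FOXA1 knockdown. EIF1, EIF3I and EIF2B3 hold none and fell in both knockdowns.
EEF2, chr19:3985446-3985475, minus strand: gacgtcagcgttCTCTTCCgccgtcgtcgc
EEF1A1, chr6:73521015-73521044, minus strand: gccgtgaacgttCTTTTTCgcaacgggttt
EEF1B2, chr2:206159883-206159912, plus strand: gtctcttcgggtCCTTTTTCCTCTCTTCag
EIF4B, chr12:53006444-53006473, plus strand: cctcatccgggtCTTTTgcgttctctttcc
EIF2A, chr3:150546775-150546804, plus strand: cccgagcggtttCTCTTTCCgggacaacat
EIF3F, chr11:7987325-7987354, plus strand: cgcttccgcctCCTTCTTTCTCgacaagat
EIF3M, chr11:32583819-32583848, plus strand: cggcccagttCCCTTTTCCggtcggcgtgg
EIF4A2, chr3:186783565-186783594, plus strand: gggcgccgctgtCTTTTCagtcgggcgctg
EEF2K, chr16:22206266-22206295, plus strand: ccgcccgcttctgctcaacctagaccagcc
EIF1AD, chr11:66002140-66002169, minus strand: gacagcgccggaagtacggttttcggaggg
EIF4G3, chr1:21176880-21176909, minus strand: agttttccgagcagccgtcctgccggactg
For EEF1B2 and EIF4G3 the table lists a second start that holds no such tract.

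Library totals ranged from 12256092 to 15152890 counts. FOXA1 stood at 29.2%, 28.6% and 29.2% of its control mean after its knockdown, and TRIM28 at 31.99%, 28.5% and 13.99% after its own. FOXA1 was itself at 47.3%, 43.0% and 70.1% of control in the TRIM28 knockdown, so these libraries differ in 2 regulators. CPM are counts scaled to library size, by TMM for single genes and by the library total alone for summed markers. TRIM28 knockdown replicate 3 stood apart in the summed level of 4 fibroblast markers, none of them under 10 counts in every library. The sum was 263 CPM there, against 28.2 and 35.1 CPM in the other 2 knockdown libraries and 26.0 to 30.4 CPM in the TRIM28 control. The sum was 28.6 to 34.6 CPM in the FOXA1 knockdown and 27.1 to 30.4 CPM in its control. The 8 luminal markers summed to 2355 to 2425 CPM in the FOXA1 knockdown, against 3705 to 3784 CPM in its control, and to 2407 to 2678 CPM in the TRIM28 knockdown, against 3723 to 3747 CPM in its control. The leukocyte markers PTPRC, CD68 and CD3E were under 10 counts in every library in these data. The 3 basal markers summed to 2.93 to 3.50 CPM in the FOXA1 knockdown, against 0.3003 to 0.9983 CPM in its control, with TP63 under 10 counts in every library. In the TRIM28 knockdown that sum was 0.323 to 2.37 CPM, against 0.320 to 0.432 CPM in its control. The 3 endothelial markers summed to 10.8 to 11.2 CPM in the TRIM28 knockdown, against 5.203 to 7.846 CPM in its control, with PECAM1 under 10 counts in every library. After FOXA1 knockdown the endothelial sum was 4.16 to 7.00 CPM, against 4.92 to 8.23 CPM in its control. KRT14 rose after FOXA1 knockdown (log2 fold change 3.05) and VWF after TRIM28 knockdown (0.73, adjusted p = 0.0174, edgeR). The part of these shifts in the results below was not tested, and in bulk RNA fewer cells of a type cannot be told apart from less RNA per cell.

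Translation factors took a smaller share of all counts after each knockdown. The 62 members held 2.57%, 2.51% and 2.49% of the counts in the FOXA1 knockdown, against 2.87%, 2.91% and 2.86% in its control. In the TRIM28 knockdown they held 2.55%, 2.54% and 2.68%, against 2.83%, 2.96% and 2.91% in its control. Neither pair of groups overlapped. EEF1A1 and EEF2 together made up about as much as all other members: 1.25% ± 0.031 in the FOXA1 knockdown and 1.48% ± 0.035 in its control (SD, n = 3 each). The other members, without the Y-linked EIF1AY, took 1.27% ± 0.017 in the FOXA1 knockdown and 1.40% ± 0.012 in its control. In TRIM28 knockdown replicate 3 these other members took 1.39%, within the 1.39% to 1.40% of the TRIM28 control, while the other two knockdown libraries were at 1.26% and 1.27%.

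**Figure D1:**
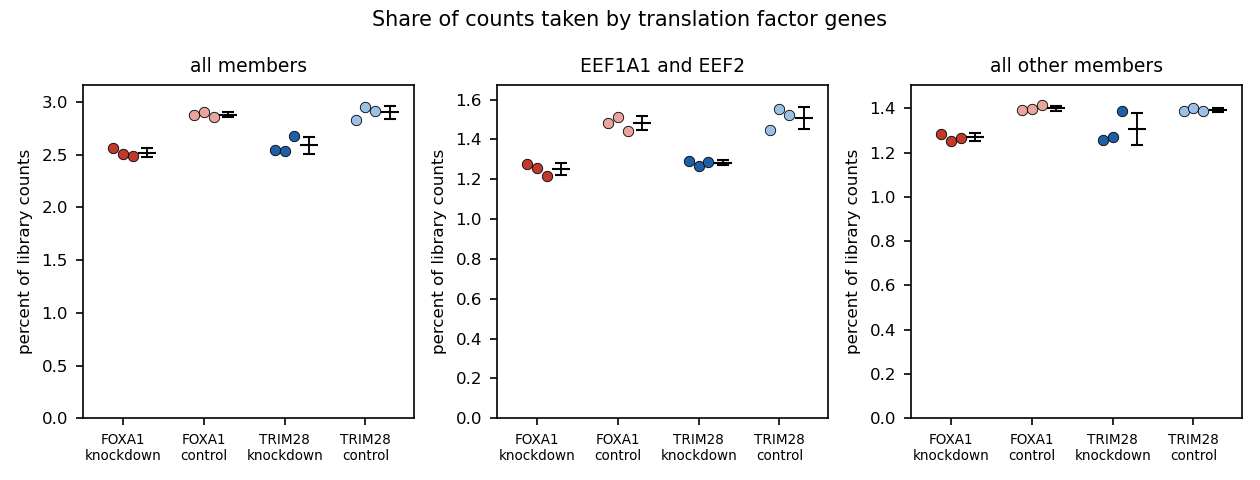
Percent of each library's counts assigned to all members (left), to EEF1A1 and EEF2 (middle) and to the other members (right). The Y-linked EIF1AY is left out. Points are libraries and bars are mean ± SD (n = 3). The knockdown libraries lie below their controls for all members, at 2.49% to 2.68% against 2.83% to 2.96%.

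Levels per transcript length, as FPKM (fragments scaled to transcript length and library total), placed EEF1A1 and EEF2 far above the rest. The median over the 6 control libraries was 1834 FPKM for EEF1A1 (1756 to 1908) and 1747 FPKM for EEF2 (1637 to 1860), ranges that overlap. EIF1 followed with 461 FPKM (431 to 486), then EIF4B with 286 FPKM (273 to 298), EIF4G2 with 261 FPKM (256 to 264) and EEF1B2 with 239 FPKM (231 to 258). EIF4G2 and EEF1B2 overlapped in this order, whereas EIF1 and EIF4B did not overlap their neighbours. The kinase EEF2K was at 6.06 FPKM (5.63 to 6.58) and the tissue-restricted EEF1A2 at 2.80 FPKM (2.76 to 3.32) in the same libraries.

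The FOXA1 knockdown against its control asked which genes depend on FOXA1. Among the factors, all 6 eIF2 genes and 10 of 14 eIF3 genes fell by modest amounts, as did EEF2, while EEF2K and EEF1A2 rose several-fold. Of 57 members tested, 29 fell and 13 rose by edgeR's quasi-likelihood test with Benjamini-Hochberg adjustment over all genes. The background in this comparison was 52.4% of 14953 tested genes called, 26.3% lower and 26.1% higher, against 50.9% of members lower and 22.8% higher. The median log2 fold change was -0.20 over the tested members and -0.02 over all tested genes. Without any 1 library, 33 of the 42 calls were kept, 25 of them falls. Against a minimum fold of 1.2, 15 falls and 5 rises passed. The 15 members that were not called spread over every role except eIF2. Genes named below, in either knockdown, were chosen by small p, as paralogs or after their values were seen. Lack of overlap between their groups therefore describes them and is not separate evidence. The share of all genes with such separation is not given here.

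EEF2K, the kinase that inhibits eEF2 (ENSG00000103319, GRCh38 chromosome 16, 22206278 to 22288738, plus strand), had 189, 212 and 179 CPM in the FOXA1 knockdown, against 49.0, 42.8 and 43.9 CPM in its control. Every knockdown library was above 3 times the highest control library. The log2 fold change was 2.10 with a standard error of 0.07 (adjusted p = 6.38e-20, edgeR), a 4.27-fold rise. EEF1A2, the eEF1A form normally found in muscle and neurons (ENSG00000101210, chromosome 20, 63488013 to 63499239, minus strand), had 36.7, 39.6 and 35.0 CPM in the FOXA1 knockdown, against 11.8, 11.1 and 11.4 CPM in its control. These groups did not overlap, and the log2 fold change was 1.70 (SE 0.10, adjusted p = 8.55e-15, edgeR). EEF1A2 still made up only 0.539%, 0.613% and 0.548% of the summed FPKM of both eEF1A genes in the FOXA1 knockdown, against 0.166%, 0.148% and 0.156% in its control.

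The abundant elongation factors went the other way in the FOXA1 knockdown. EEF2 (ENSG00000167658, chromosome 19, 3976056 to 3985463, minus strand) had 4125, 4228 and 4007 CPM in the FOXA1 knockdown, against 5777, 5612 and 5231 CPM in its control, with no overlap (log2 fold change -0.43, SE 0.04, adjusted p = 1.07e-09). EEF1A1 (ENSG00000156508, chromosome 6, 73489308 to 73525587, minus strand) had 8689, 8251 and 8152 CPM in the FOXA1 knockdown, against 9134, 9608 and 9377 CPM in its control. That fall of 0.16 on the log2 scale was called (adjusted p = 0.000955, edgeR) but did not pass against a minimum fold of 1.2. Both tested exchange factor subunits fell, EEF1B2 by 0.42 (189, 179 and 193 CPM in the FOXA1 knockdown, against 242, 244 and 267 CPM in its control) and EEF1D by 0.60 (50.5, 55.1 and 56.9 CPM, against 81.7, 76.6 and 88.8 CPM). EEF1G, a further subunit, had 0 counts in every library and was not tested. EEF1E1, which encodes a protein of the aminoacyl-tRNA synthetase complex, fell by 0.78 at only 3.96 to 6.70 CPM in the FOXA1 knockdown, against 7.05 to 10.6 CPM in its control. EEF2KMT, a methyltransferase of eEF2, was lower by 0.59 on the log2 scale (adjusted p = 0.00296), which did not hold without FOXA1 control replicate 2 (adjusted p = 0.0523).

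The pair that carries hypusine, an amino acid made only on this factor, divided. EIF5A had 251, 229 and 274 CPM in the FOXA1 knockdown, against 306, 273 and 358 CPM in its control, groups that overlapped. Its log2 fold change of -0.31 was not called (adjusted p = 0.0809, edgeR), but it was called without FOXA1 knockdown replicate 3 (0.0477), control replicate 2 (0.000206) or control replicate 3 (0.0206), and with no filter on low counts (9.03e-08). The paralog EIF5A2 rose by 0.42 (17.4, 15.8 and 18.01 CPM in the FOXA1 knockdown, against 13.6, 12.8 and 11.8 CPM in its control, adjusted p = 0.00275).

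**Figure D2:**
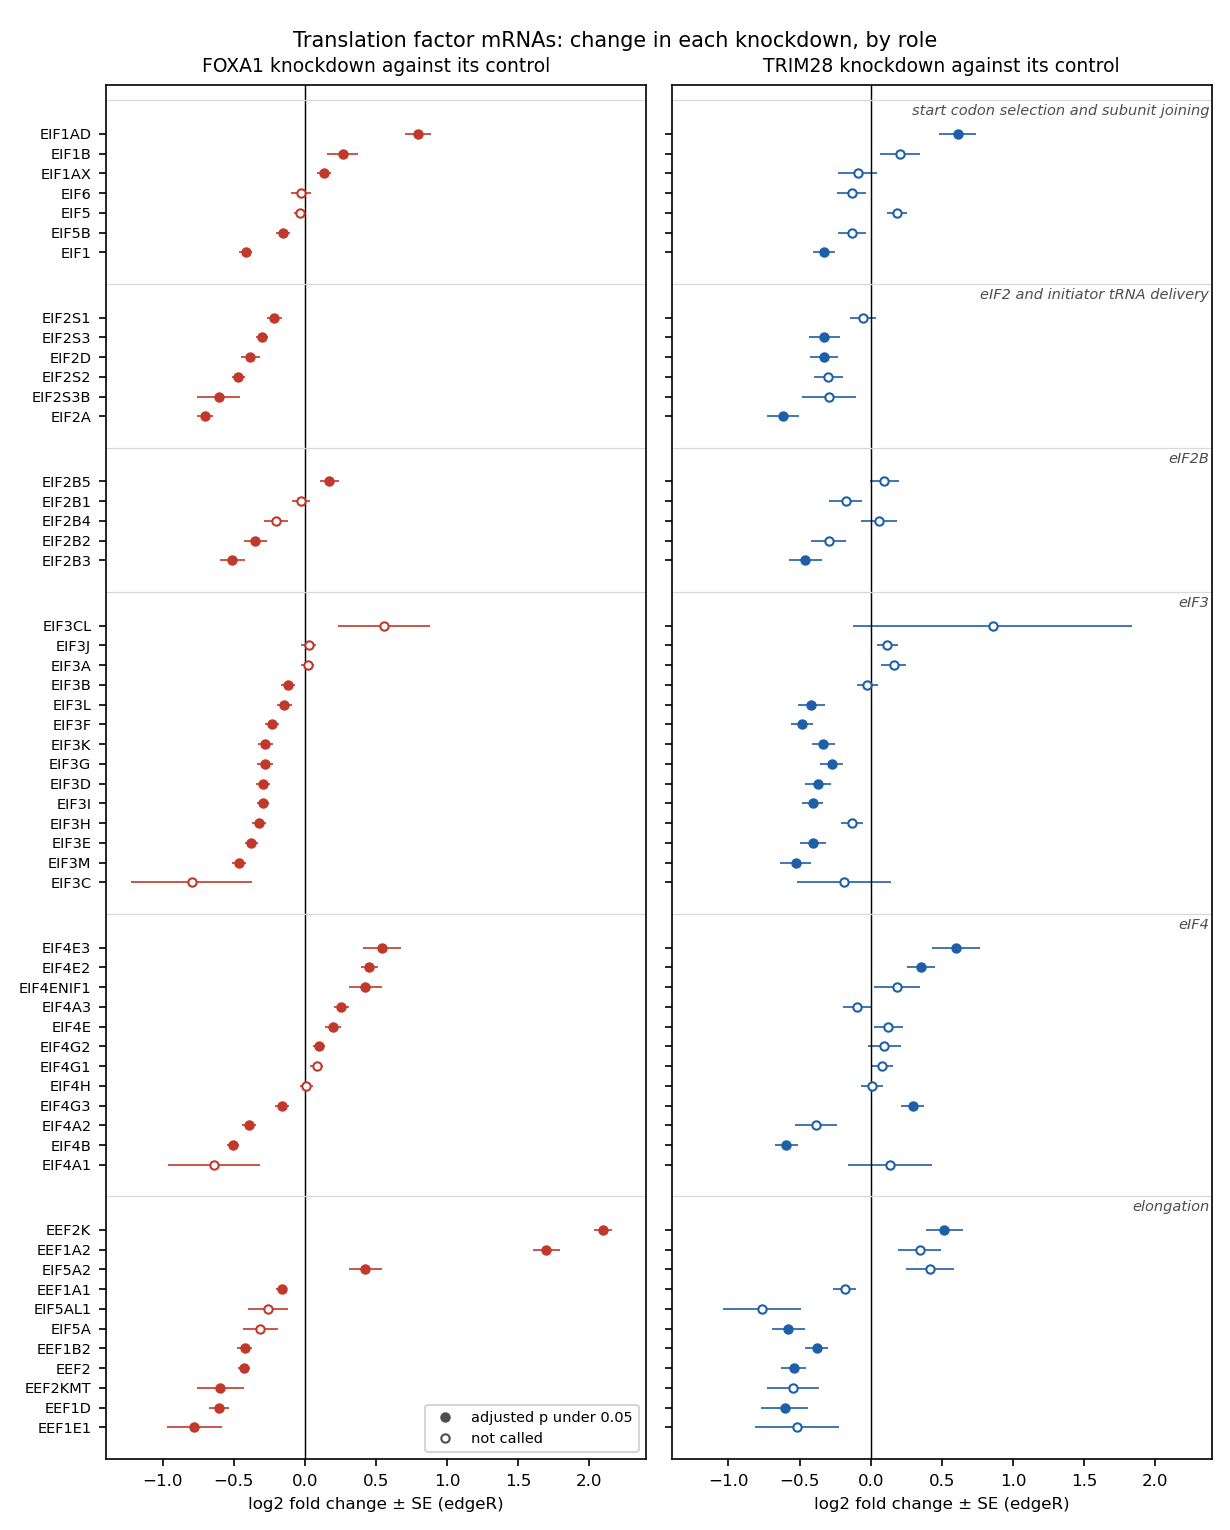
Fitted log2 fold change with standard error of each tested factor gene in the FOXA1 knockdown (left) and the TRIM28 knockdown (right), each against its own control (3 libraries a group), ordered by role. Filled points passed an adjusted p of 0.05. All 6 eIF2 genes lie below 0 in both panels, and EEF2K stands at 2.10 in the left panel and 0.52 in the right.

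All 6 genes of the eIF2 group fell in the FOXA1 knockdown (median log2 fold change -0.43). They comprise the GTPase eIF2 and factors that bring initiator tRNA by other routes. The largest fall was EIF2A (ENSG00000144895, chromosome 3, 150546678 to 150586016, plus strand), which encodes a factor separate from eIF2 that can deliver initiator tRNA. It had 146, 145 and 159 CPM in the FOXA1 knockdown, against 226, 242 and 266 CPM in its control (log2 fold change -0.71, SE 0.06, adjusted p = 2.69e-11). EIF2S2, the beta subunit of eIF2, had 330, 325 and 333 CPM in the FOXA1 knockdown, against 449, 437 and 481 CPM in its control, a fall of 0.47. EIF2S3, the gamma subunit that binds GTP and tRNA, had 396, 397 and 400 CPM, against 497, 482 and 494 CPM in its control, a fall of 0.30. None of these 3 genes overlapped between the groups. The alpha subunit EIF2S1, which carries the regulatory phosphorylation site, fell by 0.22, EIF2D, another tRNA-delivering factor, by 0.38, and EIF2S3B, a near-identical copy of EIF2S3 at 6.15 to 7.69 CPM in the knockdown, by 0.61. Reads of EIF2S3 could have been counted for this copy, so its fall may not be separate from that of EIF2S3.

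The eIF2B genes, whose product is the exchange factor for eIF2, did not move together. EIF2B3 had 21.9, 24.0 and 25.9 CPM in the FOXA1 knockdown, against 35.2, 34.6 and 32.5 CPM in its control (log2 fold change -0.51, SE 0.09, adjusted p = 1.42e-05). EIF2B2 had 38.2, 30.5 and 33.3 CPM, against 43.2, 42.8 and 44.4 CPM in its control, a fall of 0.35. Both groups of libraries were apart for these 2 subunits. EIF2B5, the catalytic subunit, rose by 0.17 (79.1, 74.9 and 73.9 CPM in the FOXA1 knockdown, against 60.5, 73.2 and 68.6 CPM in its control, adjusted p = 0.0346). That call was lost without FOXA1 knockdown replicate 1 (adjusted p = 0.127) or control replicate 1 (0.268), in DESeq2 (0.0545) and with all 12 libraries in 1 fit (0.136). EIF2B1 (-0.03) and EIF2B4 (-0.20) were not called.

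eIF3 is the largest initiation complex, and 10 of its 14 tested genes fell in the FOXA1 knockdown while 0 rose (median log2 fold change -0.28). EIF3M had 233, 212 and 220 CPM in the FOXA1 knockdown, against 287, 312 and 316 CPM in its control (log2 fold change -0.46, SE 0.05, adjusted p = 6.09e-09). EIF3E had 513, 466 and 494 CPM, against 614, 642 and 658 CPM in its control, a fall of 0.38. EIF3I had 438, 420 and 427 CPM, against 526, 523 and 530 CPM in its control, a fall of 0.30. The knockdown libraries were below the controls without overlap for all 3 of these genes, which were named for the smallest p in their role. EIF3D, a subunit that can itself bind the cap, fell by 0.30, EIF3H by 0.33, EIF3G by 0.28, EIF3K by 0.28 and EIF3F by 0.23. Falls of EIF3L (-0.15) and EIF3B (-0.12) were the smallest: the EIF3L call was lost without FOXA1 knockdown replicate 1 (adjusted p = 0.071), knockdown replicate 2 (0.11) or control replicate 2 (0.109), and the EIF3B call without knockdown replicate 2 (0.198), knockdown replicate 3 (0.0982), control replicate 1 (0.0826) or control replicate 2 (0.217). EIF3A, the largest scaffold subunit, was at 549, 522 and 529 CPM in the FOXA1 knockdown, against 546, 518 and 516 CPM in its control, and was not called (0.02, adjusted p = 0.734).

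EIF3C and EIF3CL are near-identical copies, so reads could be split between them, and the counter's rule for such reads is not given in the sources used here. EIF3C had 25.5, 11.3 and 10.9 CPM in the FOXA1 knockdown, against 30.6, 31.4 and 21.2 CPM in its control, and was not called (log2 fold change -0.80, adjusted p = 0.198). It was called at -1.32 without FOXA1 knockdown replicate 1 (adjusted p = 1.05e-06). EIF3CL, at 1.72 to 4.89 CPM in the FOXA1 knockdown against 1.80 to 2.27 CPM in its control, was called only without knockdown replicate 2 (0.83, adjusted p = 0.0328).

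The eIF4 genes, which handle the cap and unwind the mRNA leader, included 6 rises and 3 falls among 12 tested. EIF4B, the partner that stimulates the eIF4A helicase (ENSG00000063046, chromosome 12, 53006282 to 53042215, plus strand), had 796, 792 and 791 CPM in the FOXA1 knockdown, against 1115, 1106 and 1162 CPM in its control (log2 fold change -0.51, SE 0.04, adjusted p = 1.98e-11). EIF4A2, a helicase paralog, had 371, 361 and 370 CPM, against 455, 468 and 521 CPM in its control, a fall of 0.39. Neither gene overlapped between the groups. EIF4H, a relative of EIF4B, was at 0.01 and was not called (adjusted p = 0.86). EIF4A3, the helicase of the exon junction complex, rose by 0.26 (adjusted p = 0.000154).

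The 3 cap-binding genes rose in the FOXA1 knockdown. EIF4E2, a cap-binding repressor of translation, had 103, 97.7 and 104 CPM in the FOXA1 knockdown, against 72.9, 70.1 and 80.0 CPM in its control (log2 fold change 0.45, SE 0.06, adjusted p = 2.95e-07). EIF4E3 had 16.6, 15.7 and 17.3 CPM, against 8.84, 11.6 and 13.8 CPM in its control, a rise of 0.54. Neither overlapped its control. EIF4E, the main cap-binding factor, rose by 0.20 (127, 108 and 123 CPM in the FOXA1 knockdown, against 101, 106 and 106 CPM in its control, adjusted p = 0.00634), a call lost without knockdown replicate 1 (0.0578) and with all 12 libraries in 1 fit (0.0725). EIF4ENIF1, which shuttles eIF4E into the nucleus and processing bodies, rose by 0.42. The scaffolds differed: EIF4G2 rose by 0.10 (adjusted p = 0.04), a call lost without FOXA1 knockdown replicate 1 (0.116), control replicate 1 (0.0747), control replicate 2 (0.0985) or control replicate 3 (0.0813), with no filter on low counts (0.101) and with all 12 libraries in 1 fit (0.383). EIF4G3 fell by 0.16, and EIF4G1 was not called (0.08, adjusted p = 0.136) except without FOXA1 control replicate 2 (0.0486).

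EIF1AD, a protein related to eIF1A (ENSG00000175376, chromosome 11, 65996545 to 66002176, minus strand), was listed with the start codon factors, though a part in start codon choice was not tested. It had 35.8, 36.7 and 33.7 CPM in the FOXA1 knockdown, against 17.8, 22.3 and 20.9 CPM in its control (log2 fold change 0.80, SE 0.09, adjusted p = 2.34e-08). EIF1, which guards start codon fidelity, had 796, 789 and 799 CPM, against 1097, 1013 and 1076 CPM in its control, a fall of 0.42 (adjusted p = 2.04e-09). The groups did not overlap for either gene. EIF1B, the paralog of EIF1, had 30.9, 23.5 and 25.0 CPM, against 21.3, 19.9 and 25.3 CPM in its control, which overlap. Its call at 0.26 (adjusted p = 0.0442) was lost without FOXA1 knockdown replicate 1 (0.337), control replicate 1 (0.129) or control replicate 2 (0.18), in DESeq2 (0.0783) and with all 12 libraries in 1 fit (0.139). EIF5B, the subunit-joining GTPase, fell by 0.16 (adjusted p = 0.00919), but not without knockdown replicate 2 (0.121) or with all 12 libraries in 1 fit (0.133), and EIF1AX rose by 0.13 (adjusted p = 0.0189), but not without knockdown replicate 1 (0.0854) or control replicate 1 (0.0928). EIF5 (-0.04) and EIF6 (-0.03), which keeps the large subunit free, were not called.

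**Figure D3:**
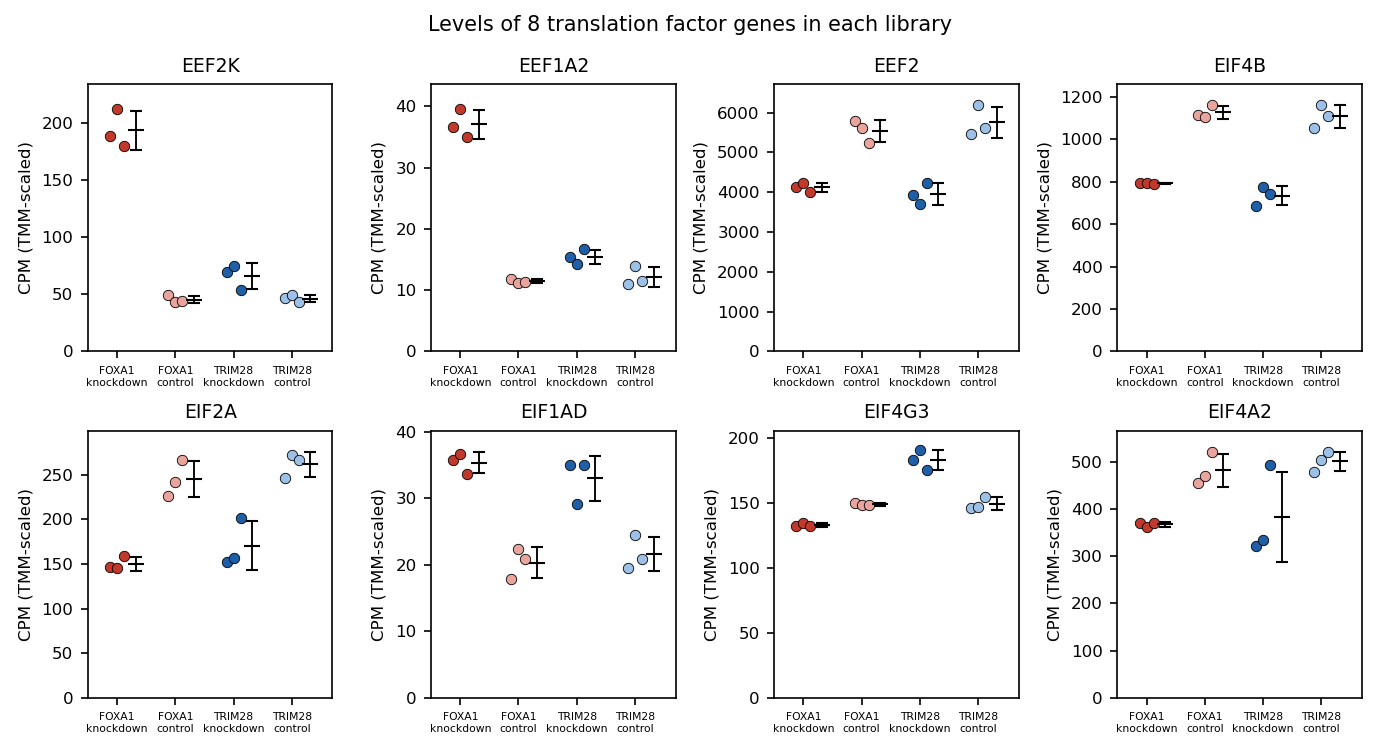
TMM-scaled CPM of 8 members in each library, by group. Points are libraries and bars are mean ± SD (n = 3). EEF2K and EEF1A2 are highest in the FOXA1 knockdown (179 to 212 and 35.0 to 39.6 CPM), EEF2, EIF4B and EIF2A lie below their controls in both knockdowns, and EIF4A2 in TRIM28 knockdown replicate 3 reaches 493 CPM.

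The TRIM28 knockdown was compared with its own control, which shares no library with the FOXA1 comparison. EEF2, EIF4B, EIF2A and 8 of 14 eIF3 genes were again lower, while EEF2K, EIF1AD, EIF4E2, EIF4E3 and EIF4G3 were higher. Of 57 members tested, 18 fell and 5 rose, that is 31.6% lower and 8.77% higher. Over all 14981 tested genes 26.7% were called, 13.3% lower and 13.3% higher. The members' median log2 fold change was -0.13, against 0.00 over all genes. Against a minimum fold of 1.2, 6 falls and 1 rise passed. Without knockdown replicate 3, 28 members fell and 8 rose, among them all 18 falls and 5 rises above, when 45.0% of all genes were called, 23.5% lower and 21.5% higher. Fewer members were called without any 1 of the others: 18 without knockdown replicate 1, 15 without knockdown replicate 2, 13 without control replicate 1, 10 without control replicate 2 and 13 without control replicate 3. The calls kept without any 1 library were 9, all falls: EEF1B2, EEF2, EIF2A, EIF3E, EIF3F, EIF3I, EIF3M, EIF4B and EIF5A.

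In elongation, EEF2 had 3930, 3696 and 4236 CPM in the TRIM28 knockdown, against 5451, 6199 and 5618 CPM in its control (log2 fold change -0.54, SE 0.09, adjusted p = 0.00233, edgeR). EIF5A had 160, 192 and 216 CPM, against 281, 312 and 255 CPM in its control, a fall of 0.58 (adjusted p = 0.0066). EEF1B2 had 200, 206 and 186 CPM, against 265, 262 and 244 CPM in its control, a fall of 0.38. All 3 genes were below every control library. EEF1D fell by 0.60 (adjusted p = 0.0252), but not without TRIM28 control replicate 1 (0.0998), control replicate 2 (0.0694) or control replicate 3 (0.0654). EEF2K had 69.8, 74.8 and 53.3 CPM in the TRIM28 knockdown, against 46.3, 49.3 and 42.9 CPM in its control (log2 fold change 0.52, SE 0.13, adjusted p = 0.0157). The groups did not overlap, but the call was lost without any 1 of the libraries other than knockdown replicate 3 (adjusted p from 0.0502 to 0.0834). EEF1A2 had 15.3, 14.3 and 16.6 CPM in the TRIM28 knockdown, against 11.0, 14.0 and 11.4 CPM in its control, and was not called (0.34, adjusted p = 0.114) except with all 12 libraries in 1 fit (0.0322). EEF1A1 had 8550, 8647 and 8592 CPM, against 9019, 10184 and 10087 CPM in its control, and was not called (-0.18, adjusted p = 0.123). It was called without knockdown replicate 3 (-0.19, adjusted p = 0.0414) and with all 12 libraries in 1 fit (0.0173). EIF5A2, at 0.42, was not called (adjusted p = 0.089) but was without that replicate (0.54, adjusted p = 0.00178) and with all 12 libraries in 1 fit (0.0275).

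Of the 6 eIF2 genes, EIF2A, EIF2S3 and EIF2D fell in the TRIM28 knockdown. EIF2A had 152, 157 and 202 CPM in the TRIM28 knockdown, against 246, 272 and 266 CPM in its control (log2 fold change -0.62, SE 0.11, adjusted p = 0.00368). EIF2S3 had 356, 386 and 480 CPM, against 490, 529 and 513 CPM in its control. The highest knockdown library of both genes was replicate 3. The EIF2S3 fall of 0.33 (adjusted p = 0.0488) was lost without any 1 library other than knockdown replicate 3 (adjusted p from 0.1 to 0.154), with RLE scaling (0.0528) and with library size only (0.0798). EIF2D fell by 0.33 (adjusted p = 0.0325), but not without knockdown replicate 2 (0.0674), control replicate 1 (0.094), control replicate 2 (0.105) or control replicate 3 (0.1), and with library size only (0.0885). EIF2S2 had 347, 373 and 453 CPM in the TRIM28 knockdown, against 483, 499 and 460 CPM in its control. It was not called (-0.30, adjusted p = 0.0556), but was without knockdown replicate 3 (-0.42, adjusted p = 1.4e-06), with no filter on low counts (0.0162) and with all 12 libraries in 1 fit (0.00836). EIF2S1 (-0.05, adjusted p = 0.703) and EIF2S3B (-0.29, adjusted p = 0.278) were not called. EIF2B3 was the 1 eIF2B gene to fall (-0.46, adjusted p = 0.0176), a call lost without knockdown replicate 1 (0.0518), control replicate 1 (0.0685) or control replicate 2 (0.0841).

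Of the eIF3 genes, EIF3F had 185, 174 and 174 CPM in the TRIM28 knockdown, against 239, 259 and 247 CPM in its control (log2 fold change -0.48, SE 0.08, adjusted p = 0.00223). EIF3I had 406, 400 and 399 CPM, against 522, 556 and 520 CPM in its control, a fall of 0.41. EIF3M had 202, 202 and 260 CPM, against 297, 330 and 330 CPM in its control, a fall of 0.53. These groups were apart, with EIF3M highest in replicate 3 among the knockdown libraries. EIF3E fell by 0.41 and kept its call without any 1 library. The other 4 falls were less steady: EIF3L (-0.42), EIF3D (-0.37), EIF3K (-0.33) and EIF3G (-0.27). Their calls were lost without TRIM28 control replicate 2, at adjusted p = 0.0626 for EIF3L, 0.0689 for EIF3D, 0.0637 for EIF3K and 0.124 for EIF3G. EIF3L was also lost without control replicate 3 (0.0573), EIF3D without knockdown replicate 2 (0.0617) or control replicate 3 (0.0604), and EIF3G without any 1 library other than knockdown replicate 3 (from 0.0587). EIF3A, EIF3B, EIF3C, EIF3CL, EIF3H and EIF3J were not called, though EIF3H was without knockdown replicate 3 (-0.16, adjusted p = 0.0458).

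EIF4B had 687, 777 and 741 CPM in the TRIM28 knockdown, against 1054, 1163 and 1108 CPM in its control (log2 fold change -0.59, SE 0.08, adjusted p = 0.00111). EIF4A2 had 322, 335 and 493 CPM, against 479, 502 and 519 CPM in its control. Replicate 3 lay inside the control range for EIF4A2, which was not called (-0.38, adjusted p = 0.0855). It was called without that replicate (-0.61, adjusted p = 5.7e-10), with no filter on low counts (0.00077) and with all 12 libraries in 1 fit (0.0297). EIF4E2 rose by 0.35 (101, 107 and 85.4 CPM in the TRIM28 knockdown, against 77.4, 75.3 and 76.6 CPM in its control) and EIF4E3 by 0.60 (21.7, 19.4 and 14.3 CPM, against 12.8, 12.5 and 11.2 CPM). Both rises were called (adjusted p = 0.0247 for EIF4E2 and 0.0254 for EIF4E3) and lost without any 1 library other than knockdown replicate 3 (at most 0.107 and 0.106). EIF4E, the main cap-binding factor, was not called (0.12, adjusted p = 0.395), nor were EIF4G1 (0.08) and EIF4G2 (0.10). EIF1 fell by 0.33 (875, 901 and 927 CPM, against 1127, 1199 and 1066 CPM in its control, adjusted p = 0.0133), which was lost without control replicate 2 (0.0617). EIF1AD had 35.0, 29.1 and 35.0 CPM in the TRIM28 knockdown, against 19.5, 24.4 and 20.9 CPM in its control, a rise of 0.61 (adjusted p = 0.00712) lost without control replicate 1 (0.0507).

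Side by side, 17 of the 57 tested members fell in both knockdowns. These were 58.6% of the 29 falls after FOXA1 knockdown and 94.4% of the 18 after TRIM28 knockdown. They were EEF1B2, EEF1D, EEF2, EIF1, EIF2A, EIF2B3, EIF2D, EIF2S3, EIF3D, EIF3E, EIF3F, EIF3G, EIF3I, EIF3K, EIF3L, EIF3M and EIF4B. Among them only EEF1B2, EEF2, EIF2A, EIF3E, EIF3F, EIF3I, EIF3M and EIF4B kept their TRIM28 call without any 1 library. FOXA1 was itself lower in the TRIM28 knockdown, and its part in the shared changes was not tested. Over all genes tested in both comparisons, 10.1% fell in both, 1461 of 14498. That is a share of tested genes, whereas 58.6% and 94.4% are shares of falls. Over all genes, 3938 fell after FOXA1 knockdown and 1999 after TRIM28 knockdown, against the 1461 that fell in both. EEF2K, EIF1AD, EIF4E2 and EIF4E3 rose in both, as did 9.8% of all genes, but none of these rises kept its TRIM28 call without any 1 library. EIF4G3, a scaffold of the cap-binding complex (ENSG00000075151, chromosome 1, 20806292 to 21177285, minus strand), was the 1 member called in opposite directions, a class that held 0.883% of all genes.

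A direct test of the difference between the effects, over all 12 libraries, called 4 members, where 10.6% of all genes were called, 5.98% with the FOXA1 effect higher and 4.59% with it lower. The FOXA1 effect exceeded the TRIM28 effect for EEF2K by 1.59 (SE 0.15, adjusted p = 5.13e-06) and for EEF1A2 by 1.36 (SE 0.16, adjusted p = 3.66e-05) on the log2 scale. EIF4G3 had 132, 135 and 132 CPM in the FOXA1 knockdown, against 150, 149 and 148 CPM in its control (-0.16, adjusted p = 0.00713), and 183, 191 and 175 CPM in the TRIM28 knockdown, against 146, 147 and 155 CPM in its control (0.29, adjusted p = 0.0207). In neither experiment did its groups overlap, and its effects differed by -0.45 (adjusted p = 0.00211, edgeR). The TRIM28 rise of EIF4G3 was lost without knockdown replicate 2 (0.0742), control replicate 1 (0.092), control replicate 2 (0.0993) or control replicate 3 (0.0656), while the differences of EEF2K, EEF1A2 and EIF4G3 were kept without any 1 library. EIF4A3 differed by 0.36 (adjusted p = 0.0425), a call kept only without FOXA1 control replicate 2 or TRIM28 knockdown replicate 3 and lost without each of the other ten libraries (0.0509 to 0.0971) and with library size only (0.0751). With library size as the only scaling the split was 2 higher and 3 lower, in place of 3 higher and 1 lower. For the other 53 members no difference was called, which does not show that the effects were equal. Between the FOXA1 control and the TRIM28 control, 0 members and 0.0% of all genes were called by edgeR, 0 members by DESeq2, and 1 member, EIF3C, had an unadjusted p under 0.05 (0.0427).

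**Figure D4:**
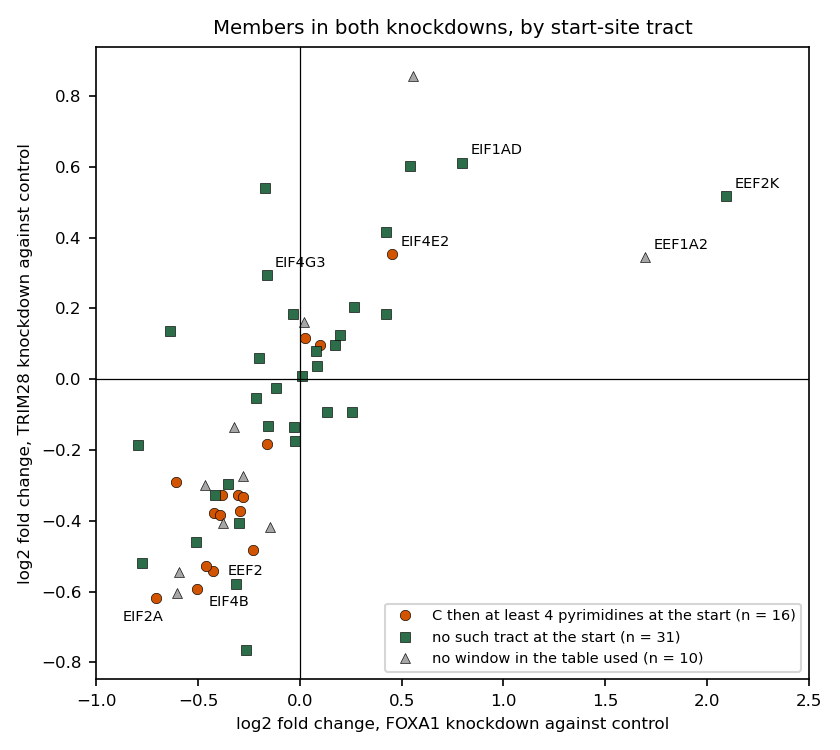
Log2 fold change of each tested member in the FOXA1 knockdown (horizontal) and the TRIM28 knockdown (vertical), against the respective control libraries. Marker shape and colour give the start-site tract: 16 members with it, 31 without and 10 with no window used. Most members with a tract lie in the lower left quadrant, and EEF2K lies at 2.10 and 0.52.

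The pyrimidine tract printed above for the start sites was set against the changes after the values had been seen, so the counts are a description and no test was run. Of 51 members with a window, 16 (31.4%) had a tract at 1 or more starts, against 16.3% of 10787 tested symbols. Of all 35116 windows 10.5% held one, but a symbol can have several windows, so that share is in another unit. The search covered only the strand printed above, which reads in the direction of transcription. In the FOXA1 knockdown, 13 of the 16 members with a tract fell and 2 rose, EIF4E2 and EIF4G2, with a median log2 fold change of -0.34. Of the 31 tested members without one, 9 fell and 10 rose, with a median of -0.04. Among all tested genes, 36.2% of those with a tract and 26.8% of those without fell in the FOXA1 knockdown.

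After TRIM28 knockdown, 10 of the 16 members with a tract fell and 1, EIF4E2, rose (median -0.35), whereas 4 of 31 without fell and 4 rose (median 0.01). Over all tested genes 23.1% of those with a tract and 13.2% of those without fell there. Members with a tract include the most abundant ones, and the part of the level in these counts was not tested. Of the 10 members with the highest FPKM in the controls, 7 fell and 1 rose after FOXA1 knockdown, and 6 fell and 0 rose after TRIM28 knockdown. Of the 10 with the lowest FPKM, 2 fell and 4 rose after FOXA1 knockdown, and 0 fell and 1 rose after TRIM28 knockdown. Some members with no tract also fell, EIF1, EIF3I and EIF2B3 among them. A match says only that these letters stand at an annotated start, not that the mRNA begins there in LNCaP cells.

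Genes around the factors, outside the symbol rule, moved in both directions too. Of 51 pathway genes 48 were tested in each knockdown; 11 rose and 17 fell after FOXA1 knockdown, and 5 rose and 7 fell after TRIM28 knockdown. Over all tested genes 26.1% rose and 26.3% fell after FOXA1 knockdown, and 13.3% rose and 13.3% fell after TRIM28 knockdown. Of the repressors that bind eIF4E, EIF4EBP1 had 153, 157 and 148 CPM in the FOXA1 knockdown, against 221, 219 and 202 CPM in its control (log2 fold change -0.48, adjusted p = 3.13e-09). In the TRIM28 knockdown it had 142, 138 and 155 CPM, against 224, 253 and 223 CPM in its control (-0.69, adjusted p = 0.000826). EIF4EBP2 had 350, 348 and 335 CPM in the FOXA1 knockdown, against 185, 197 and 175 CPM in its control (0.89, adjusted p = 4.14e-15). So EIF4EBP1 fell in both knockdowns, and EIF4EBP2 rose in the FOXA1 knockdown. After TRIM28 knockdown EIF4EBP2 had 337, 315 and 170 CPM, against 181, 181 and 190 CPM in its control, and was not called (0.57, adjusted p = 0.105) except without replicate 3 among the leave-one-out fits (0.82, adjusted p = 2.88e-13). PDCD4, an inhibitor of the eIF4A helicase, rose after FOXA1 knockdown (0.24, adjusted p = 0.000101) and after TRIM28 knockdown (0.43, adjusted p = 0.00442).

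In the signalling arm, MKNK2, a kinase of eIF4E, had 876, 1051 and 928 CPM in the FOXA1 knockdown, against 475, 450 and 406 CPM in its control (log2 fold change 1.10, adjusted p = 3.27e-07). After TRIM28 knockdown it was at 542, 489 and 730 CPM, against 450, 542 and 455 CPM in its control, which overlap. MTOR, the kinase of mTORC1, fell by 0.54 in the FOXA1 knockdown (adjusted p = 1.36e-10). After TRIM28 knockdown MTOR was not called (-0.49, adjusted p = 0.246) except, among the leave-one-out fits, without replicate 3 (-0.94, adjusted p = 1.92e-14). MLST8, a subunit of mTORC1, fell in both, by 0.59 after FOXA1 and by 0.64 after TRIM28 knockdown. So did PABPC4, a poly(A)-binding protein (-0.52 after FOXA1 and -0.67 after TRIM28 knockdown), and TUFM, the mitochondrial elongation factor (-0.58 after FOXA1 and -0.56 after TRIM28 knockdown). The 6 DPH genes, which make the diphthamide residue of eEF2, moved both ways. DPH3 rose by 0.59 after FOXA1 knockdown and by 0.81 after TRIM28 knockdown. DPH5 (-0.44), DPH6 (-0.33), DPH7 (-0.38) and DPH1 (-0.32, adjusted p = 0.00746) fell after FOXA1 knockdown, the DPH1 call not without control replicate 1 (0.0532). DPH1 (-0.44, adjusted p = 0.0195) and DPH2 (-0.43, adjusted p = 0.0335) fell after TRIM28 knockdown. Both calls were lost without knockdown replicate 2 (0.0782 for DPH1 and 0.127 for DPH2) or any 1 control library (0.0542 to 0.0867 for DPH1 and 0.0514 to 0.122 for DPH2).

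Some members could not be measured well. The filter on low counts left out EEF1G and EEF1E1-BLOC1S5, with 0 counts in every library, EIF4E1B, with 0 to 2, EIF5-DT, with 1 to 8, and EIF1AY, whose values are not given here. Of the 57 tested, 56 were over the count minimum in all 12 libraries, and the exception was EIF2B5-DT. At least 90% of EEF1G, EIF4A1 and EEF1E1 lies inside another symbol on the same strand. EIF4A1, which encodes the main eIF4A helicase, had 1.59, 1.19 and 1.54 CPM in the FOXA1 knockdown, against 1.94, 1.61 and 3.27 CPM in its control, and was not called (-0.64, adjusted p = 0.0987) except without FOXA1 control replicate 2 (-0.84, adjusted p = 0.0433). Its 13 pseudogene symbols held 85.0% to 94.3% of the counts of gene and pseudogenes together, so its row is not a measure of that mRNA. For EEF1A1, 49 pseudogene symbols held 4.40% to 5.35%. How the counter treated overlapping or multiply aligned reads, and whether it used strand, is not given in the sources used here.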

How the data were processed

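Poly(A) RNA sequencing of 12 LNCaP libraries, 3 per group, was analysed from the gene tables. For each knockdown with its control the authors deposited a table of raw counts by gene symbol, and FPKM values in a further table. GRCh38 is the build named in the submitters' processing notes. Not given in the sources used here are the aligner, the counter, its use of strand and the annotation. For 13022 of 13022 genes checked, the deposited FPKM equalled the count over 1 length per gene and the library total (relative tolerance 0.001). Of 62710 lines, symbols on several lines (453) were kept once.

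Counts were tested with edgeR 4.0.16 in R 4.3.3: TMM scaling, low-count filter by filterByExpr (count 10, total 15), quasi-likelihood fits with robust priors, two-sided F-tests, Benjamini-Hochberg adjustment over all tested genes, threshold 0.05. Each knockdown was fitted with its own control (6 libraries), and the difference between effects over all 12. A gene rose or fell where it passed. CPM values of single genes are TMM-scaled within each fit, and summed marker CPM are scaled to the library total alone. FPKM served to compare levels between genes. DESeq2 1.42.0, other scalings, no filter, a minimum fold of 1.2, a replicate block and leaving out each library were the alternatives. The fits were tested on simulated data. All libraries carry batch label 1. Members, gene lists, roles and the naming rule (per role and knockdown, the called members with the smallest p, up to 3, plus paralog sets and the largest differences between knockdowns) were chosen with earlier results of these data known. Members named beyond that rule were chosen after their values were seen. Start windows came from RefSeq tables of 300 bases per start on GRCh38.p14, matched by symbol (51 of 62 members).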

Additional observations from a re-analysis of the deposited data

Results flagged for a closer look

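The effect of the FOXA1 knockdown differed from that of the TRIM28 knockdown in 4 members and 2 pathway genes, by edgeR's quasi-likelihood test of the difference over all 12 libraries. EEF2K differed by 1.59 on the log2 scale (2.10 after FOXA1 knockdown, 0.52 after TRIM28 knockdown), and EEF1A2 by 1.36 (1.70 and 0.34). EIF4G3 differed by -0.45, with every library of the FOXA1 knockdown below its control and every library of the TRIM28 knockdown above its own. EIF4A3 differed by 0.36 (adjusted p = 0.0425; up to 0.0971 with 1 library left out). MKNK2 differed by 0.83 (adjusted p = 0.0135). PAIP2B, an inhibitor of poly(A)-binding protein, differed by -0.61 (-0.36 after FOXA1 knockdown and 0.26 after TRIM28 knockdown, adjusted p = 0.0343), a call lost without FOXA1 knockdown replicate 2 (0.0969) or 3 (0.101), FOXA1 control replicate 1 (0.11) or 2 (0.0517), TRIM28 knockdown replicate 2 (0.096), or TRIM28 control replicate 1 (0.101) or 3 (0.0722).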

How the results depend on the processing

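In the FOXA1 knockdown 42 members were called (13 rose, 29 fell). A minimum fold of 1.2 left 20 (5 rose, 15 fell), and 1 fit over all 12 libraries left 8 rises. With 1 library left out the count was 37 to 42 (8 to 14 rises, 26 to 30 falls). In the TRIM28 knockdown 23 were called (5 rose, 18 fell). A minimum fold of 1.2 left 7 (1 rose, 6 fell), and all 12 libraries in 1 fit gave 8 rises. With 1 library left out the count was 10 to 36 (0 to 8 rises, 9 to 28 falls). The difference between knockdowns gave 4 members, and 3 to 9 with 1 library left out. Between the controls 0 members differed, 0 in every leave-one-out fit, and 1 with no filter on low counts. Other scalings and DESeq2 kept the FOXA1 and TRIM28 counts within 1.5 times. For these changes the cause was not tested. Replicate numbers were not treated as pairs in the main fits. The correlation of deviations of same-numbered libraries was -0.02, 0.01 and 0.10 in the FOXA1 experiment and 0.02, -0.08 and 0.00 in the TRIM28 experiment. With 3 libraries a group, these values cannot tell whether same-numbered libraries shared a step. With the replicate block, 43 members were called after FOXA1 knockdown, 24 after TRIM28 knockdown, 4 for the difference and 0 between the controls. The block changed the call of 3 named members: EIF5A was called after FOXA1 knockdown (adjusted p = 6.24e-07), EIF4G2 was not (0.0537), and EIF4A2 was called after TRIM28 knockdown (0.0245). No named member changed direction while called. At 12256092 to 15152890 counts a library, members with fewer than 3 libraries near 10 counts were not tested.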
